A study of Mus musculus with 4 samples.

Results

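The Hox genes Hoxa3, Hoxa7, Hoxa9, Hoxa10 and Hoxc8 and the Hox cofactor genes Meis1 and Pbx3 were examined for acetylation of histone H3 at lysine 9 (H3K9ac), measured by chromatin immunoprecipitation and sequencing in mouse bone marrow. The 7 genes were picked by name, and each had a row in the deposited table of 9615 genes. Both groups carried floxed Gfi1b (Gfi1b fl/fl) and the Nup98 transgene, which the protocol text gives as the fusion of NUP98 with HOXD13, and both were labelled leukemic. The WT group lacked MxCre and the tg group carried it, so WT here means free of Cre and not free of the leukaemia transgene. Cre expressed from the Mx promoter deletes floxed alleles after interferon signalling. The labels give neither the age of the mice, nor an inducing treatment, nor the number of animals behind a library. Each group had 1 H3K9ac library, so no difference between the groups has a replicate check, no test between genotypes was possible, and higher or lower describes these 2 libraries. The 2 IgG libraries were not analysed here.

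Hox proteins are homeodomain transcription factors encoded in clusters, and the genes of the A cluster are active in blood stem and progenitor cells and are shut down as the cells mature. PBX and MEIS proteins, which belong to the TALE class of homeodomain proteins, bind DNA together with Hox proteins and stabilise them there. Fusions of NUP98 with a Hox protein keep genes of this class active in leukaemic progenitors, and Hoxa9 with Meis1 is a well known transforming pair. H3K9ac marks active promoters and enhancers.

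The WT library counted 309649 reads and the tg library 163712 for scaling, and a count of 0 would allow up to 9.69 scaled reads in WT and 18.3 in tg (3 reads in a library). A probe is a stretch of genome in which the authors counted reads. Each of the 7423 genes with 1 probe had at least 9 reads in both libraries together. The 2071 genes with several probes and recovered reads averaged at least 9 per probe. Marker genes of blood lineages also differed between the libraries. Of 20 erythroid genes listed, 13 had a row. Of these, 12 were higher in tg by 2-fold or more (16.5% of all genes) and 0 lower by as much (15.8%). Their summed scaled reads were 827 in WT and 3347 in tg, with Hbb-b1, Epor, Rhag and Alas2 at 0 reads in WT. A gene with 0 reads in 1 library has a row only through the other library, which fixes its direction. All 5 neutrophil genes with a row were lower in tg by 2-fold or more (313 and 55.0 scaled reads, none at 0). They held 97 WT reads and only 9 tg reads, so the minimum of 9 reads fixes the direction of most of them. Of 7 monocyte genes, 3 were lower by 2-fold or more and 1 higher (1863 and 415 scaled reads, none at 0). Of 13 stem and progenitor genes, 4 were higher and 6 lower, with Cd34 at 0 reads in tg, and this list includes Meis1 and Hoxa9 themselves. The megakaryocyte list had 3 genes with 2 lower in tg and Selp at 0 there, and the B and T cell list 3 genes with 0 beyond 2-fold. Gfi1b, the floxed gene, counted 12 WT reads and 108 tg reads over 4 probes, 17.0-fold higher in tg (9.36 to 34.0). Its WT probes held 2, 2, 3 and 5 reads, so the minimum of 9 reads per probe fixes its direction but not its size. Probe positions are not known, so the Gfi1b value does not check the deletion. The Y-linked gene Uty counted 28 WT reads and 0 tg reads, and the Y-linked gene Ddx3y 22 and 1. The part of these differences in the values below was not tested. In whole marrow, a change in the share of a cell type cannot be told apart from a change in acetylation per cell.

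By the deposited values, 3 of the 7 genes (Hoxa3, Hoxa10 and Meis1) were at least 2-fold higher in tg, against 16.5% of all genes, and 1 (Hoxc8) was at least 2-fold lower, against 15.8%. The median log2 difference, tg minus WT, was 0.87 for the 7 genes and 0.045 for all genes. The deposited value of a gene is the mean of log2 scaled reads over its probes, and it weighs a probe of few reads as much as a probe of many. Reads per probe were recovered for 6 of the 7 genes. With these reads summed over probes, 2 of 6 were at least 2-fold higher (Hoxa10 and Meis1; 14.8% of all genes with recovered reads) and 1 was at least 2-fold lower (Hoxc8; 15.4%), and the median log2 difference was -0.56. The 95% counting interval lay above equality for Hoxa10 and Meis1 (12.8% of all genes with recovered reads) and below it for Hoxa3, Hoxa7, Hoxa9 and Hoxc8 (12.7%). The interval of Meis1 is no result of its own, since the minimum of 9 reads allows a gene with 2 WT reads into the table only with 7 or more tg reads. For Hoxa10, with 1 WT read per probe, the same minimum requires a higher tg level but not its size. For Hoxc8, with 2 tg reads per probe, it requires a lower tg level, again without fixing its size. Hoxa3 and Hoxa9 thus changed direction with the way probes were combined. The 3 Hoxa genes with intervals below equality hold probes in common and do not count as 3 separate measurements. Intervals cover counting error only, because each group had 1 library. Reads that carry no molecular identifier may be copies of 1 molecule, which would make the intervals too narrow.

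**Figure D1:**
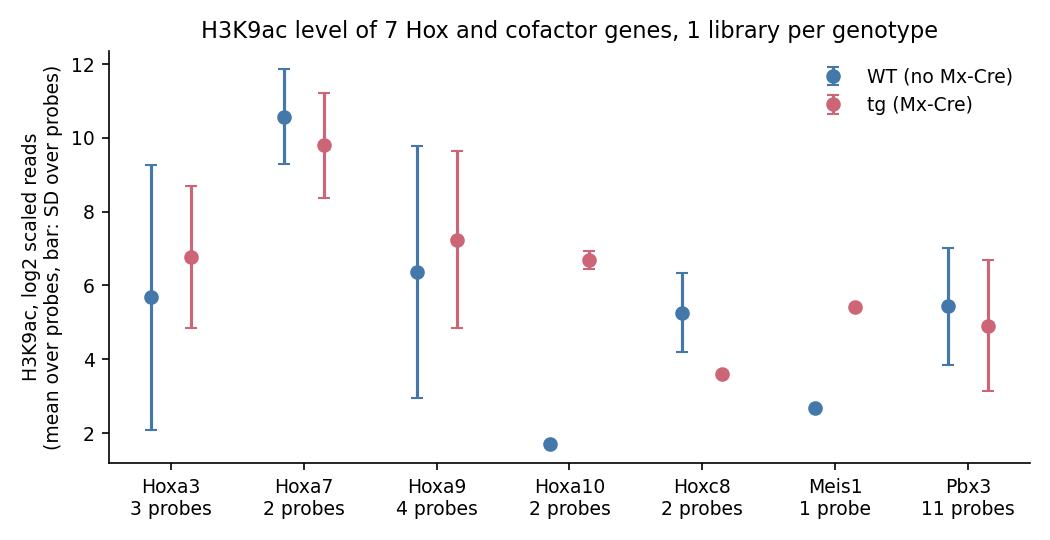
Deposited H3K9ac level of the 7 genes (vertical axis, mean of log2 scaled reads over the gene's probes) in the WT and the tg library. Bars are the SD over probes within 1 library, drawn for genes with several probes, and points without a visible bar have 1 probe or equal probes. Hoxa7 is highest in both libraries (10.57 and 9.80), and Hoxa10 goes from the lowest of the 7 in WT (1.69) to the fourth place in tg (6.69).

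Hoxa7 carried the highest level. In WT the order was Hoxa7 (log2 level 10.57), Hoxa9 (6.37), Hoxa3 (5.68), Pbx3 (5.44), Hoxc8 (5.26), Meis1 (2.69) and Hoxa10 (1.69). In tg it was Hoxa7 (9.80), Hoxa9 (7.24), Hoxa3 (6.77), Hoxa10 (6.69), Meis1 (5.42), Pbx3 (4.91) and Hoxc8 (3.61). The step from Hoxa7 to Hoxa9, 4.20 in WT and 2.56 in tg on the log2 scale, exceeded the SD over probes of either gene in the same library. Hoxa9, Hoxa3, Pbx3 and Hoxc8 followed each other in WT by less than their SDs over probes, and so did Hoxa9 and Hoxa3 in tg. These are levels per probe, and probe lengths are not stated in the sources used.

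**Figure D2:**
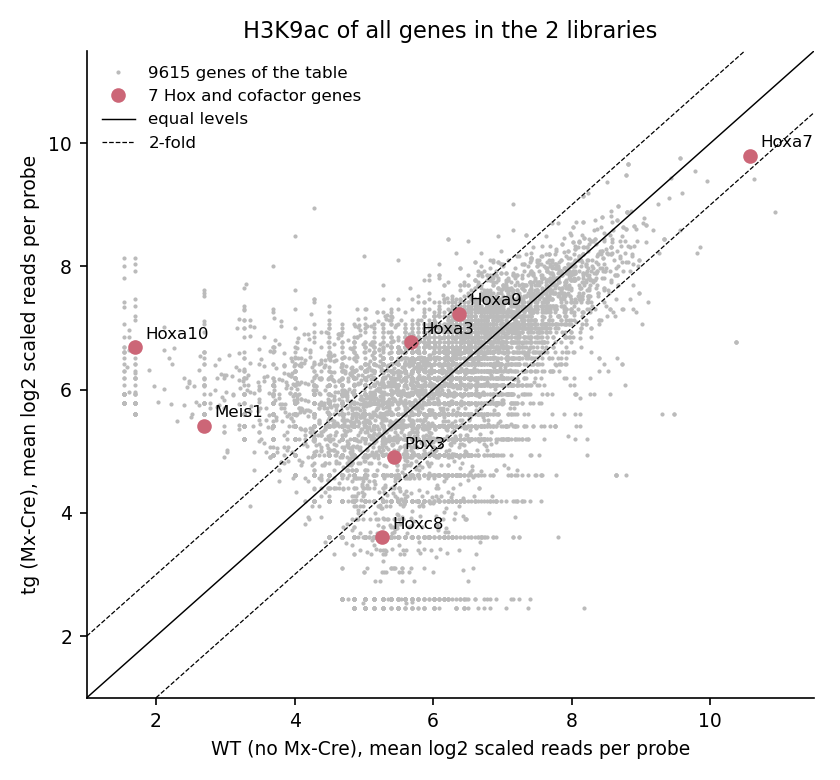
Mean log2 scaled reads per probe of the 9615 genes in WT (horizontal axis) and tg (vertical axis), with the 7 genes named. The solid line marks equal levels and the dashed lines a 2-fold difference. Hoxa7 lies at the upper end of both axes, Hoxa10 and Meis1 lie far above the upper dashed line, and Hoxc8 lies below the lower one.

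Hoxa7, a Hox gene of the middle of the cluster that is active in early myeloid progenitors (chromosome 6, 52214491 to 52221854, GRCm38, ENSMUSG00000038236), had 2 probes, with 250 and 883 reads in WT and 72 and 294 in tg. Both probes were lower in tg, and the gene's summed reads were 1.64-fold lower (95% interval 1.45 to 1.85), with a deposited log2 difference of -0.77. Even so, Hoxa7 held rank 1 of 9615 genes in tg and rank 3 in WT by its deposited level. Its probe of 883 and 294 reads was the tallest in both libraries among the 9494 genes with recovered reads.

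Hoxa9, the gene of a Hox protein that drives self-renewal of myeloid progenitors (52223100 to 52231089, ENSMUSG00000038227), combined 1 tall probe with 3 low ones. Its probes held 6, 9, 9 and 883 reads in WT and 9, 10, 14 and 294 in tg. The tall probe had the counts of the tall probe of Hoxa7, a neighbour whose row ends 1245 bases away. By summed reads the tg level was 1.47-fold lower (1.29 to 1.67), whereas the deposited log2 level was higher by 0.87 (6.37 with an SD over probes of 3.42 in WT, 7.24 with 2.40 in tg).

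Hoxa3, the gene of a Hox protein of the pharyngeal region (52168510 to 52213336, ENSMUSG00000079560), showed the same split. Its 3 probes held 2, 8 and 250 reads in WT and 5, 16 and 72 in tg. The deposited log2 difference of 1.09 puts Hoxa3 just past 2-fold higher, yet its summed reads were 1.48-fold lower (1.16 to 1.89). Its tall probe had the counts of the lower probe of Hoxa7, whose row starts 1154 bases away. The long non-coding gene models Gm20653 and 2700086A05Rik, which overlap Hoxa3, had values identical to those of Hoxa3.

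Rows nested inside other rows made it possible to pair the probes of the 2 libraries. Hoxa4 (1 probe, 2 and 16 reads) and Hoxa6 (1 probe, 8 and 5 reads) lie inside Hoxa3, which leaves 250 reads in WT and 72 in tg for the third probe. Mir196b (1 probe, 9 and 10 reads) lies inside 9930038K12Rik (2 probes), which lies inside Hoxa9. The 10 rows of this stretch list 22 probes in all, of which 9 were distinct. Pairing assumes that a row inside another lists probes that the outer row lists too, and the counts allowed this in every case. If a probe is listed for each gene that it overlaps, the tallest probe covers the 1245 bases between the rows of Hoxa7 and Hoxa9, and the second tallest the 1154 bases between those of Hoxa3 and Hoxa7. No source used here states how probes were assigned to genes. In the whole table, 112 pairs of neighbours that do not overlap had equal values on at least 20 reads per library, with 95.5 bases between them in the median pair and 1722 in the widest.

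**Figure D3:**
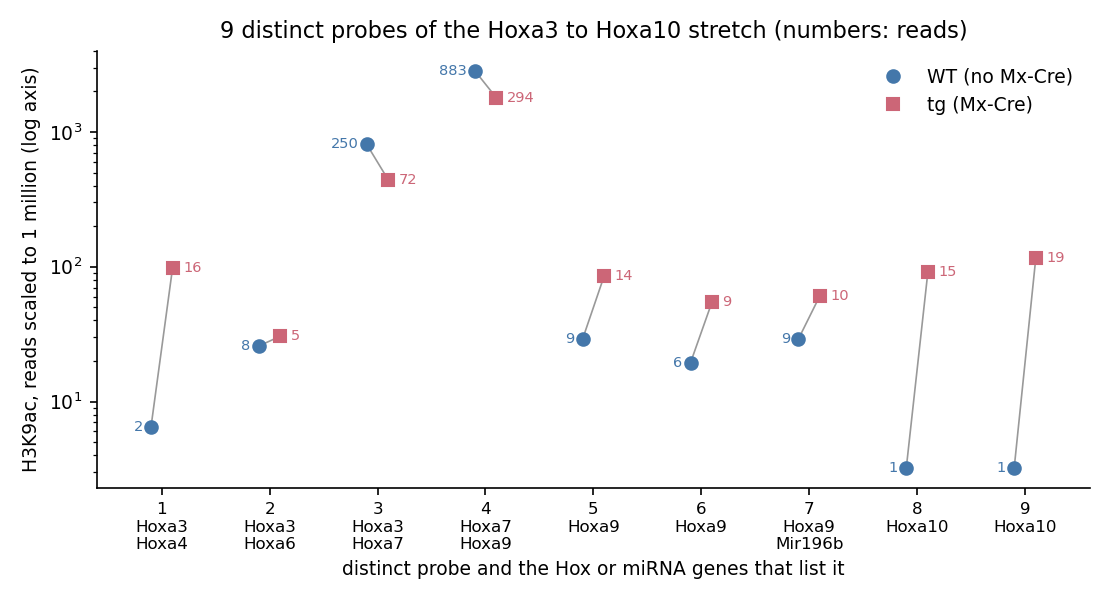
Reads scaled to 1000000 (vertical log axis) at the 9 distinct probes of the Hoxa3 to Hoxa10 stretch, with WT as circles, tg as squares and the reads printed beside them. Probes follow the order of the genes that list them, and the order within Hoxa9 and within Hoxa10 is not known. The 2 tall probes are lower in tg and the 7 low probes are higher.

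Over the 9 distinct probes, the stretch counted 1169 WT and 454 tg reads, which after scaling is 1.36-fold lower in tg (1.22 to 1.52). The 2 tall probes had 1133 and 366 reads, 1.64-fold lower (1.45 to 1.85). The other 7 had 36 and 88 reads, 4.62-fold higher in tg (3.10 to 7.02). The tall pair therefore took 96.9% of the cluster's reads in WT (exact binomial 95% interval 95.8 to 97.8) and 80.6% in tg (76.7 to 84.2). All 7 low probes were higher in tg, and the interval lay above equality for 4 of them. For 3 of these 4, the probe of Hoxa4 and both probes of Hoxa10, the minimum of 9 reads fixes the direction, since 100% of 1-probe genes with 1 or 2 WT reads were at least 2-fold higher in tg. Without these 3 probes, a setting chosen after seeing the data, the low probes had 32 and 38 reads, and their ratio was 2.25 (1.37 to 3.71). The shares of the tall pair include all 9 probes, so the minimum of 9 reads is part of their difference between the libraries. Tall and low probes were also told apart by their WT reads. Of the reads of all 9 probes, the other 4 low probes took 2.74% in WT (1.88 to 3.84) and 8.37% in tg (5.99 to 11.3). By single probes, the tallest was 1.59-fold lower (1.39 to 1.82) and the probe shared by Hoxa3 and Hoxa7 1.84-fold lower (1.41 to 2.42). The probe of Hoxa4 was 15.1-fold higher (3.56 to 136) and the probe that Hoxa9 shares with no other row was 2.94-fold higher (1.19 to 7.71). The probe of Hoxa6 had a ratio of 1.18 (0.304 to 4.10), with equality inside its interval.

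The rest of the table gives the background of these contrasts. Among the 161 genes with 1 probe and a mean level of at least 300 scaled reads, the median log2 difference was -0.25. Of these, 24.8% had a log2 difference as low as the -0.67 of the tallest Hoxa probe or lower, and 16.8% one as low as the -0.88 of the second tallest. For the low probes the minimum of 9 reads matters, since a probe with few WT reads is in the table only with many tg reads. Among 1-probe genes with 9 WT reads, 6.19% had 14 or more tg reads, the count of the probe listed for Hoxa9 alone. Among those with 2 WT reads, 11.0% had 16 or more tg reads, the count of Hoxa4. Direction went with the WT count in the table as a whole, since 70.1% of the 1095 1-probe genes with 5 to 10 WT reads were higher in tg (median log2 difference 0.60), against 15.5% of the 187 with 100 or more (-0.55). Shares were higher for the other low probes listed for Hoxa3 or Hoxa9: 23.9% of genes with 6 WT reads had at least the 9 tg reads of the second probe of 9930038K12Rik, 21.9% of those with 9 WT reads had at least the 10 of Mir196b, and 65.2% of those with 8 had at least the 5 of Hoxa6.

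**Figure D4:**
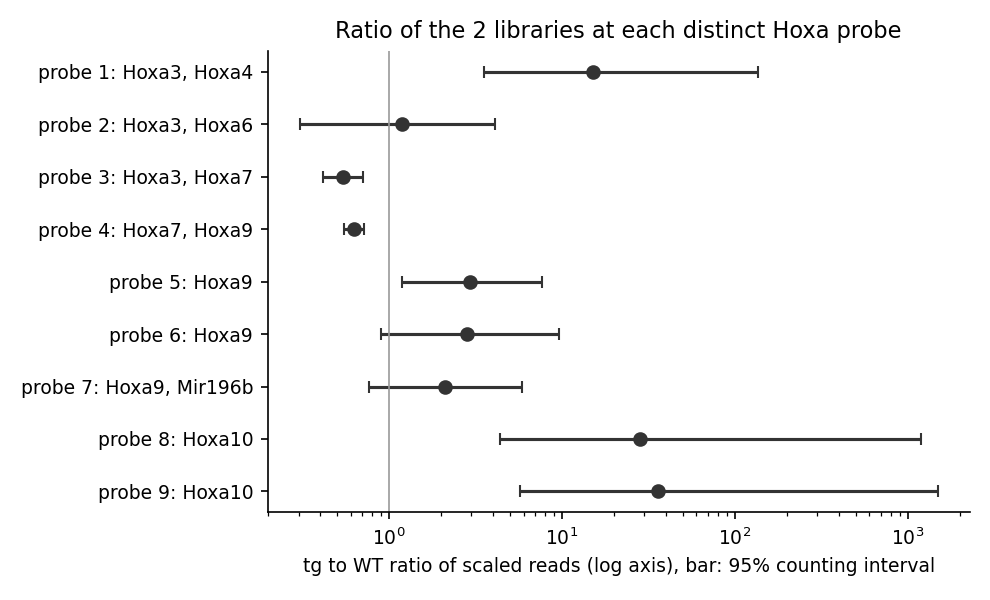
Ratio of tg to WT scaled reads (horizontal log axis) at the 9 distinct probes, with bars for the exact 95% counting interval and a line at equality. The intervals of probes 3 and 4, the tall pair, lie below equality. Those of probes 1, 5, 8 and 9 lie above it, and those of probes 2, 6 and 7 include it.

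The microRNA in this stretch, miR-196b, belongs to a family that is encoded within Hox clusters and directs repression of Hox transcripts, Hoxb8 above all. Its hairpin (52230081 to 52230165) is only 85 bases long. If a probe is listed for each gene that it overlaps, this makes its probe the best placed of the Hoxa9 probes. The mature 5p strand is given here with its seed, bases 2 to 8, in capitals (RefSeq, GRCm38.p6). It identifies which family member lists that probe. It differs by 1 base outside the seed from miR-196a, encoded in the B and C clusters.
mmu-miR-196b-5p: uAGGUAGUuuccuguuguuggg
With 9 WT reads and 10 tg reads, its scaled level was 2.10-fold higher in tg, with equality inside the interval (0.767 to 5.85).

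Hoxa10, the gene of a Hox protein of progenitors and of the uterus (52231197 to 52240854, ENSMUSG00000000938), differed most. Its 2 probes held 1 read each in WT and 15 and 19 in tg. Summed reads, 2 against 34, were 32.2-fold higher in tg, with a wide interval of 8.24 to 276, and the deposited log2 levels were 1.69 and 6.69. Neither probe is shared with Hoxa9, although the rows are only 107 bases apart. Among the 49 genes with 1 probe and 1 WT read, all of which had to reach 8 tg reads to be in the table, the median was 9 tg reads. Of these genes 20.4% had 15 or more and 14.3% had 19 or more.

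RefSeq lists 2 start sites for Hoxa10, and the table does not say which probe lies at which. The 250 bases before each start, and those of Hoxa3 and Hoxa9, are shown because Hoxa10 has low probes alone, while Hoxa3 and Hoxa9 each list a tall probe beside low ones. Sequences run 5′ to 3′ on the gene's strand, which is the minus strand throughout, from RefSeq (GRCm38.p6), with CpG dinucleotides in capitals.
Hoxa10 upstream start, chr6:52240855-52241104: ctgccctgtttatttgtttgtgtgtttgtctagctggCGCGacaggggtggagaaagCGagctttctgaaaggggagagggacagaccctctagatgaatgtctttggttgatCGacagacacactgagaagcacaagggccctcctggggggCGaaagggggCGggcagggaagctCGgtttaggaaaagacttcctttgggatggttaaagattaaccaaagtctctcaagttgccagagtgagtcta
Hoxa10 downstream start, chr6:52234940-52235189: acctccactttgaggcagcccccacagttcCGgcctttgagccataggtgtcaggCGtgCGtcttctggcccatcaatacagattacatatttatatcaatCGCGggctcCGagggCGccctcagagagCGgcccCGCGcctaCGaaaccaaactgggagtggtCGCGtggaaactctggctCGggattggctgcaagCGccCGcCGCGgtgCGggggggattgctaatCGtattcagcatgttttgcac
Hoxa9, chr6:52227371-52227620: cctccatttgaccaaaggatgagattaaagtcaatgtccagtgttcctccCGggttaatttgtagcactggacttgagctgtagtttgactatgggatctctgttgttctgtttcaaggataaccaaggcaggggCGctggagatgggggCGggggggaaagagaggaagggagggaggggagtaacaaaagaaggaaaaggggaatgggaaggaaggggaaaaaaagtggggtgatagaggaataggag
Hoxa3, chr6:52213068-52213317: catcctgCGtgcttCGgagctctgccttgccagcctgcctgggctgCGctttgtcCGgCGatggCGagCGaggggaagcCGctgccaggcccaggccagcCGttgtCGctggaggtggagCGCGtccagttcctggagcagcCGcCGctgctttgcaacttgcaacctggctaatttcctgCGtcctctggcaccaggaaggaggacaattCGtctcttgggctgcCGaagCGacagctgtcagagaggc
The upstream window of Hoxa10 begins where the Hoxa10 row ends, and the other 3 windows lie within the rows of their genes. The downstream window of Hoxa10 holds 20 CpGs and the upstream one 7, against a median of 6 in all 32851 RefSeq windows of that length. The Hoxa3 window holds 18, that of Hoxa7 7 and that of Hoxa9 3. The Hoxa3 window ends 19 bases short of the end of the Hoxa3 row, on the side of Hoxa7. On both strands, the sequence TGACAG, bound by MEIS proteins, occurs once in the Hoxa3 window, 7 bases before the start, and in 0 of the other 5 windows (15.9% of all windows hold it). TGATTNAT, bound by pairs of Hox and PBX proteins, occurs in 0 of the 6 windows of Hoxa3, Hoxa7, Hoxa9, Hoxa10 and Meis1, and in 2.82% of all windows. A match is a description of letters and not evidence of binding.

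Hoxc8, a Hox gene of the thoracic trunk (chromosome 15, 102990622 to 102994267, ENSMUSG00000001657), was the member lower in tg by the 2-fold rule on both scales. Its 2 probes held 7 and 20 reads in WT and 2 each in tg. The deposited log2 level was 5.26 in WT and 3.61 in tg, and summed reads were 3.57-fold lower (1.24 to 14.0). The long gene model Gm20398 spans this stretch with 8 probes, and the 8 probes of Hoxc9, Hoxc8, Hoxc6 and Mir615 give its deposited mean, 6.29 in WT and 5.68 in tg, and its SD over probes, 2.13 and 2.23. The probes of Hoxc8 are therefore distinct from those of Hoxc9 and Hoxc6, and Gm20398 repeats them.

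The clusters differed in the direction of their deposited values. By the 2-fold rule, 3 of 6 Hoxa genes were higher in tg and 0 lower (median log2 difference 0.98). Of 5 Hoxc genes 0 were higher and 3 lower (-1.35), and of 4 Hoxb genes 0 were beyond 2-fold (-0.54). Of all genes, 16.5% were higher and 15.8% lower by this rule. The 3 Hoxa genes were Hoxa3, Hoxa4 and Hoxa10. The minimum of 9 reads fixes the direction of Hoxa4 and Hoxa10, and Hoxa3 lists the probe of Hoxa4. With summed reads, 2 of 6 Hoxa genes, the same Hoxa4 and Hoxa10, were higher and 0 lower, and the Hoxa median turned to -0.16. Of all genes with recovered reads, 14.8% were higher and 15.4% lower by summed reads. On that scale 0 Hoxb genes were higher and 1, Hoxb6, was lower (ratio 0.467, 0.271 to 0.769, median -0.87), while 0 Hoxc genes were higher and 3 lower (median -1.05). Beside Hoxc8 the lower Hoxc genes were Hoxc9, with 12 and 13 reads in WT and 2 and 3 in tg, and Hoxc5, with 12, 15 and 126 in WT and 2, 3 and 34 in tg. The minimum of 9 reads fixes the direction of Hoxc8, of Hoxc9 and of the Hoxc5 probes with 2 and 3 tg reads. It does not fix that of the Hoxc5 probe with 126 and 34 reads. Hoxc6, a gene often active in NUP98 fusion leukaemia, had 3, 71 and 205 reads in WT and 9, 43 and 76 in tg, and a summed ratio of 0.868 with equality inside the interval (0.698 to 1.07). Hoxb8, which can immortalise myeloid progenitors, was lower on summed reads (ratio 0.501, 0.363 to 0.682). The difference between clusters was not tested.

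Meis1, the cofactor gene that speeds Hoxa9 leukaemia (chromosome 11, 18880430 to 19018958, ENSMUSG00000020160), had 1 probe for a gene of 138529 bases, with 2 WT reads and 7 tg reads. The deposited log2 levels were 2.69 and 5.42, and the ratio of 6.62 had an interval of 1.26 to 65.3. These 9 reads are the minimum for a gene to be in the table. All 73 1-probe genes with 2 WT reads had at least 7 tg reads, and 34 genes had exactly the reads of Meis1. The value of Meis1 thus rests on the lowest count that the table contains.

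Pbx3, the gene of the PBX protein most often coupled with Hoxa9 and Meis1 in leukaemia (chromosome 2, 34171457 to 34373140, ENSMUSG00000038718), was the member with the most probes. It had 11, a number that 19 of the 9615 genes reach. Its deposited log2 level was 5.44 in WT and 4.91 in tg, which corresponds to a geometric mean of 13.4 and 4.91 reads per probe. The difference was -0.53. The SD over probes, 1.59 in WT and 1.78 in tg, is the spread between the probes of 1 library. It does not measure the error of the difference between libraries. Single probe reads could not be recovered for Pbx3, so it has no counting interval, and a tall probe within it would be hidden in the mean.

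Of 10 other TALE cofactor genes looked for, 4 had a row (median log2 difference 0.20). By the 2-fold rule, 1 was higher in tg (16.5% of all genes) and 1 lower (15.8%). Pknox1, which encodes the MEIS relative PREP1, had 1 and 17 reads in WT and 10 and 18 in tg, 2.94-fold higher on summed reads (1.57 to 5.65). The minimum of 9 reads fixes its probe with 1 WT read as higher in tg, but not by how much. Pbx4 counted 9 WT reads and 0 tg reads, at the minimum for the table. Pbx2 (13 and 8 reads, ratio 1.16, 0.418 to 3.03) and Tgif1, the gene of a TALE repressor (98 and 49 reads over 5 probes, ratio 0.946, 0.657 to 1.35), had intervals that include equality.

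Among 40 listed regulators of Hox genes, 31 had a row, with a median log2 difference of -0.08. By the 2-fold rule, 3 were higher in tg (16.5% of all genes) and 4 lower (15.8%). The higher ones were Kdm6a, Jarid2 and Prmt5. Kdm6a, the X-linked gene of a demethylase of the repressive mark H3K27me3, had 15 and 70 reads in WT and 22 and 64 in tg (ratio 1.91, 1.40 to 2.61). The Y-linked genes Uty and Ddx3y also differed between the libraries, and whether the Kdm6a ratio goes with that was not tested. Jarid2, a Polycomb accessory gene, had a ratio of 1.61 (1.03 to 2.51). The minimum of 9 reads fixes its probe with 3 WT reads as higher in tg. The arginine methyltransferase gene Prmt5 had 11 and 12 reads (ratio 2.06, 0.833 to 5.16). The lower ones were the DNA methyltransferase gene Dnmt3a (13 and 29 reads in WT, 1 and 3 in tg, ratio 0.180, 0.047 to 0.496), the Polycomb ring finger gene Ring1 (29 and 6 reads, ratio 0.391, 0.133 to 0.959), the elongation factor gene Aff4 (17 and 64 reads in WT, 2 and 28 in tg, summed ratio 0.701, 0.445 to 1.08) and Nup98 itself (35 and 9 reads, ratio 0.486, 0.206 to 1.03). For Dnmt3a, with 1 and 3 tg reads, the minimum of 9 reads requires a lower tg level but not its size. The same holds for the Aff4 probe with 2 tg reads. Nup98 reads at the endogenous gene and at the transgene cannot be told apart here. Men1, the gene of the cofactor through which MLL complexes reach Hoxa9, had 13 and 5 reads (ratio 0.727, 0.203 to 2.17), Psip1, which encodes the MLL tether LEDGF, 21 and 15 (1.35, 0.648 to 2.75), and the H3K79 methyltransferase gene Dot1l 16 and 8 (0.946, 0.350 to 2.34). The highest deposited levels in tg among these 31 genes were those of Ezh2, the Polycomb methyltransferase (109 and 56 reads, ratio 0.972, 0.691 to 1.35), and Ctcf, whose protein sets domain borders within Hox clusters (118 and 55 reads, 0.882, 0.628 to 1.22).

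The genes closest to each member by distance between their 2 log2 levels, outside the member's own neighbourhood, show how common each pattern was. Hoxa7 had 0 named genes within 0.25, and the nearest were Mab21l2 at 0.38 and Cd47 at 0.83. Hoxa10 had 11 such genes, led by Agpat3 at 0.010 and Dclk2 at 0.085. Hoxa3, Hoxa9, Pbx3 and Hoxc8 had 128, 117, 106 and 89, with Rif1 and Aurka nearest to Hoxa3, B3galt6 and Lnp to Hoxa9, Msl3 and Madd to Pbx3, and Itpk1 to Hoxc8. The second place for Hoxc8 and both places for Meis1 were tied on low counts, and none of the tied genes is named. With 2 libraries, likeness of levels is a description and says nothing of shared control.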

How the data were processed

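Histone H3 acetyl-lysine 9 was profiled in 1 WT and 1 tg library, and the 2 IgG libraries were not analysed here. Per the submitters' processing notes, BWA, SAMtools, FastQC and CASAVA 1.8.2 were used with the builds mm10 and GRCm38. The authors' deposited values are a mean and an SD per library, taken over the probes of a gene per the file headers, on a log2 scale. The deposited number of probes per gene has no unit. No source used here states how probes were placed or filtered.

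Columns were matched to samples by library code. For 7423 genes with a single probe, 100% of values on the linear scale equalled a whole number of reads times 1 constant per library (tolerance 0.01 of a read, with 0 reads entered as 0.9), which gives totals of 309649 and 163712 for scaling to 1000000. Reads per probe were recovered where exactly 1 set of whole numbers gave both mean and SD (9494 genes, 98.7%). On simulated reads 710 of 714 genes were recovered, and none wrongly. Ratios have exact conditional binomial (Clopper-Pearson) 95% intervals (SciPy 1.17.1). Called means at least 2-fold. Named were the 7 genes, rows of the Hox clusters, 10 TALE cofactors, 40 regulators and the 2 nearest genes of each member. The members, lists and rules were chosen with earlier results of these data known. Alternatives were other ways to combine probes, other centring, a level filter and merging of shared probes.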

Additional observations from a re-analysis of the deposited data

How the results depend on the processing

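Results depended mainly on how the probes of a gene were combined. The median log2 difference of 0.87 turned to -0.56 with summed reads, -0.55 with 1 read added to each library's sum and -0.67 with the tallest probe alone, each over 6 genes, since Pbx3 has no recovered reads. The same 3 settings turned Hoxa3 from 1.09 to -0.56, -0.55 and -0.88, and Hoxa9 from 0.87 to -0.55, -0.55 and -0.67. By construction they weigh the tall probes more. Leaving out the 3 low Hoxa probes with 1 or 2 WT reads, a setting chosen after seeing the data, moved the ratio of the low probes from 4.62 to 2.25. Requiring the median level of all genes (62.1 scaled reads) left 3 of the 7 genes, with 1 instead of 3 at least 2-fold higher and 0 instead of 1 lower. Hoxa7 kept its direction under the 5 settings run for single genes, and Pbx3 under the 2 centrings. Hoxa10, Meis1 and Hoxc8 also kept theirs under the 5 settings, but this is no check of it. The minimum of reads already fixes their direction, at the WT reads of Hoxa10 and Meis1 and the tg reads of Hoxc8. Centring on all genes (0.045) or on the upper quartile of level (-0.02) and counting shared probes once left both counts as they were. No paired analysis was possible because each group has 1 library, and for the same reason no replicate could be left out. Reads from 1 to 20 per probe limit Hoxa10, Hoxc8 and Meis1.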
